A study of Homo sapiens with 6 samples.

Results

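Antisense long noncoding RNAs, the genes whose symbol ends in -AS or in -AS and a number, were examined in GFP-positive HEK293 cells. Of 23686 gene rows in the count files, 425 have a name of this form, and 180 of these had at least 10 reads on the gene's own strand in at least 3 libraries. The other 245 fell under that minimum, and 94 of them had 0 reads in all 6 libraries. HEK293 is an established human embryonic kidney line. In the co-culture group, 3 samples of GFP-positive cells shared a culture for 10 h with HEK293 cells carrying DAAO, which produced reactive oxygen species (ROS), with 25 µM D-alanine. DAAO commonly stands for D-amino acid oxidase, whose oxidation of D-amino acids yields hydrogen peroxide. The control group was 3 samples of GFP-positive wild-type cells, and cells of both groups were sorted for GFP. The labels carry 1 treatment text for all samples, so whether the controls received D-alanine or partner cells is not told by them. Nothing in the labels says that the samples came from separate cultures, so p-values measure the spread between these samples, which may be technical. The comparison asked how cells without the enzyme respond to ROS-producing neighbours, and here it is read for the antisense RNAs.

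An antisense RNA is transcribed from the strand opposite to another gene, the sense gene, and usually takes its name from it. Many start close to the sense gene's own start and run the other way, and some overlap its exons. Known examples act on the sense gene in cis, bind microRNAs or proteins elsewhere, or host small RNAs, while for most no function is known. Because the sense gene is often far more abundant, measuring an antisense RNA depends on keeping the strand of each read.

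The libraries held 19091085 to 36250314 reads on the gene's own strand. The kit's own strand is the reverse count, and the forward count of the same gene holds reads from the opposite strand. A stranded library keeps a small leak of reads onto the wrong strand. It was estimated as the median ratio of opposite-strand to own-strand reads over 4907 abundant genes. This leak was 1.67% in co-culture 1, 0.124% in co-culture 2, 0.212% in co-culture 3, 1.66% in control 1, 1.59% in control 2 and 1.79% in control 3. The only low-leak libraries were therefore co-culture 2 and 3, so that strand leak and group are partly confounded. All 10 HEK293 marker genes were above 1 CPM (TMM-scaled counts per 1e6 reads) in every library. Their summed level was 2446 to 2655 CPM in co-culture against 2026 to 2099 CPM in controls, and VIM alone held 925 to 1318 CPM. Of the 10, 2 were called higher (INA and VIM), against 2.66% of all genes in the test described below. PAX2 had a log2 fold change of -0.24 (adjusted p = 0.368, edgeR), and those of the others were above 0. The part of these marker differences in the results below was not tested. None of 11 markers of blood, liver, muscle, fibroblast and endothelial cells exceeded 1 CPM in every library, with CD3E and HBB at 0 reads. DAO, the human D-amino acid oxidase gene, was also at 0 reads. Whether the DAAO of the partner cells would be counted in that row is not known here, so this does not show that partner cells were absent.

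Of the 180 antisense RNAs, 177 had enough reads for the test across all genes (edgeR's quasi-likelihood test, Benjamini-Hochberg adjusted p under 0.05). The test left out ZRANB2-AS2, EIF1B-AS1 and ZFHX4-AS1, which sit at the read minimum. In co-culture 4 antisense RNAs rose (PCOLCE-AS1, ZEB1-AS1, THAP9-AS1 and ASB16-AS1) and 1 fell, HOXA-AS4, which current annotation names HOXA10-AS. These 5 calls are 2.82% of the antisense RNAs tested, against 4.83% of all 14582 genes. They include PCOLCE-AS1, which met the read minimum only through its co-culture libraries. By direction, 2.66% of all genes were called higher (388) and 2.17% lower (316). Scaled by total counts, which moved the median of all genes to -0.04, the split over all genes was 310 higher and 572 lower, with 4 antisense RNAs higher and 2 lower. An unadjusted p under 0.05 was reached by 26 antisense RNAs (14.7%), against 23.2% of all genes. The median log2 fold change of the antisense RNAs was 0.04, against -0.00 over all genes, with 101 above and 76 below 0. The median standard error was 0.22 on the log2 scale for an antisense RNA and the median level was 2.25 CPM, against 30.6 CPM over all tested genes.

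The upstream sequences of the 4 RNAs that rose are shown because these are the members called together in that direction, and their start sites lie close to or inside other genes. They were read from the RefSeq promoter table of GRCh38.p14, 5′ to 3′ on the RNA's own strand, and end at the base before the listed start. Bases that GENCODE release 29 marks as untranslated were left out, which shortens the THAP9-AS1 sequence to 166 bases from the full 250 bases. The submitters' processing notes name hg18 as the build, so these positions are not those of the count files. Capitals mark matches to the ETS motif CCGGAAG on either strand. The table lists a second start for ZEB1-AS1, whose upstream sequence is not printed because 111 bases of it are left without the untranslated bases (70.3% G and C). HOXA10-AS was not in the table.
THAP9-AS1, chr4:82900917-82901082, minus strand: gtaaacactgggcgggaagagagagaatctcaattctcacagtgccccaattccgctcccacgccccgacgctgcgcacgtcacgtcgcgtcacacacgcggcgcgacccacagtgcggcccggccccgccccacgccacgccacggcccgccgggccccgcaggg
PCOLCE-AS1, chr7:100604039-100604288, minus strand: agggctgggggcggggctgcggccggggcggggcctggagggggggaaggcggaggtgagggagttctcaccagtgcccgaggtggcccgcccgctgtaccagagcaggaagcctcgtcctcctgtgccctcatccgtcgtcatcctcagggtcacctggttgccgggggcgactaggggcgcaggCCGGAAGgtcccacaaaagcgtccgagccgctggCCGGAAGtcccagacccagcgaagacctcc
ZEB1-AS1, chr10:31320448-31320697, minus strand: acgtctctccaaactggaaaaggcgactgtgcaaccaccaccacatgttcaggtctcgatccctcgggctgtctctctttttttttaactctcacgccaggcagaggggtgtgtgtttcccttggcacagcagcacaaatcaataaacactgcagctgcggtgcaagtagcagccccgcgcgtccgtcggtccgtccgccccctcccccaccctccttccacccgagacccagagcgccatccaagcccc
ASB16-AS1, chr17:44186718-44186967, minus strand: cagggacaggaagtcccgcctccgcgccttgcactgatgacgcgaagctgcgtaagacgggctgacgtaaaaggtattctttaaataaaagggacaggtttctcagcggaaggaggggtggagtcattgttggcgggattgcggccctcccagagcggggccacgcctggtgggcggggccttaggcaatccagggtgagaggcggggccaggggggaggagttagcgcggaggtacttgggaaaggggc
The sequences are rich in G and C, with 71.7% for THAP9-AS1, 71.6% for PCOLCE-AS1, 59.6% for the ZEB1-AS1 sequence shown and 62.4% for ASB16-AS1. Both strands were searched for the ETS motif CCGGAAG, the AP-1 motif TGANTCA and the CRE motif TGACGTCA. PCOLCE-AS1 held 2 ETS matches, and no other match was found in the 4 sequences. Coding bases of other genes had not been left out of the sequences. On its other strand the PCOLCE-AS1 sequence reads as an open frame through both matches, so they may lie in coding sequence of PCOLCE. Among 35116 upstream windows of 250 bases in the table, 8.52% held the ETS motif, 6.57% the AP-1 motif and 1.65% the CRE motif. A match is a description of letters and not a site of binding.

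ZEB1-AS1 lies on the minus strand of chromosome 10, and GENCODE places its start 63 bases from a start of ZEB1, a zinc finger repressor known for its part in epithelial-mesenchymal transition. Its level was 12.1, 12.1 and 12.5 CPM in co-culture 1, 2 and 3 and 8.34, 8.503 and 7.02 CPM in control 1, 2 and 3. The co-culture libraries were all above the controls and close together. The means were 12.2 ± 0.216 against 7.95 ± 0.813 CPM (SD, n = 3 each), with a log2 fold change of 0.63 with SE 0.12 (adjusted p = 0.016, edgeR). ZEB1 itself had a log2 fold change of 0.19 with SE 0.14 (adjusted p = 0.446, edgeR), and its levels overlapped between the groups. Only 0.818% of the stranded reads over ZEB1-AS1 were on the opposite strand.

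THAP9-AS1 on chromosome 4 starts 113 bases from THAP9, a gene related to P-element transposases. It stood at 25.3, 27.4 and 22.0 CPM in co-culture and at 18.7, 14.9 and 18.6 CPM in controls. The groups did not overlap, and co-culture 3 was the lowest of its group. The means were 24.9 ± 2.75 and 17.4 ± 2.15 CPM, with a log2 fold change of 0.51 with SE 0.11 (adjusted p = 0.031, edgeR). THAP9 stood at 10.3, 10.55 and 9.02 CPM in co-culture and at 7.43, 6.99 and 7.52 CPM in controls. Its log2 fold change of 0.44 with SE 0.12 (adjusted p = 0.062, edgeR) missed the threshold, and the log2 ratio of antisense to sense RNA differed by 0.09 between the groups (exact permutation p = 0.5, two-sided).

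ASB16-AS1 on chromosome 17 starts 6589 bases from the nearest start of ASB16, a gene of the ankyrin repeat and SOCS box family, and 31.1% of its exon bases overlap exons on the other strand. Its level was 20.4, 19.4 and 19.9 CPM in co-culture and 13.6, 14.8 and 15.6 CPM in controls. All co-culture libraries lay above all controls. The means were 19.9 ± 0.491 and 14.7 ± 1.02 CPM, with a log2 fold change of 0.44 with SE 0.09 (adjusted p = 0.022, edgeR). ASB16 was below the filter on low counts, at 0.152 to 0.285 CPM over the libraries.

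PCOLCE-AS1 on chromosome 7 starts 6 bases from a start of PCOLCE, which encodes an enhancer of procollagen processing. It had the highest fold change of the called RNAs and the fewest reads, with 13, 13 and 30 in co-culture and 4, 5 and 7 in controls. On the CPM scale these were 0.650, 0.618 and 0.838 against 0.202, 0.261 and 0.269. The groups did not overlap. The means were 0.702 ± 0.119 and 0.244 ± 0.036 CPM, with a log2 fold change of 1.53 with SE 0.37 (adjusted p = 0.044, edgeR). A share of 46.7% of the stranded reads over PCOLCE-AS1 was on the opposite strand, and PCOLCE had a log2 fold change of 0.22 with SE 0.20 (adjusted p = 0.558, edgeR).

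HOXA-AS4 lies in the HOXA cluster on the plus strand of chromosome 7, where HOXA genes encode homeobox factors that set position along the body axis. It stood at 4.75, 3.90 and 3.97 CPM in co-culture and at 6.97, 8.35 and 9.09 CPM in controls. Every co-culture library was below every control. The means were 4.21 ± 0.476 and 8.14 ± 1.07 CPM, with a log2 fold change of -0.96 with SE 0.16 (adjusted p = 0.0092, edgeR). In GENCODE 62.3% of its exon bases overlap HOXA10 and HOXA9 on the other strand, and 87.8% of its stranded reads were opposite-strand reads. HOXA10 had a log2 fold change of -0.19 (adjusted p = 0.325, edgeR) and HOXA9 of -0.35 (adjusted p = 0.291, edgeR). Strand leak would supply 8.18% of the HOXA-AS4 reads, and with the expected leak subtracted its log2 fold change was -0.91 (adjusted p = 0.0097, edgeR).

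**Figure D1:**
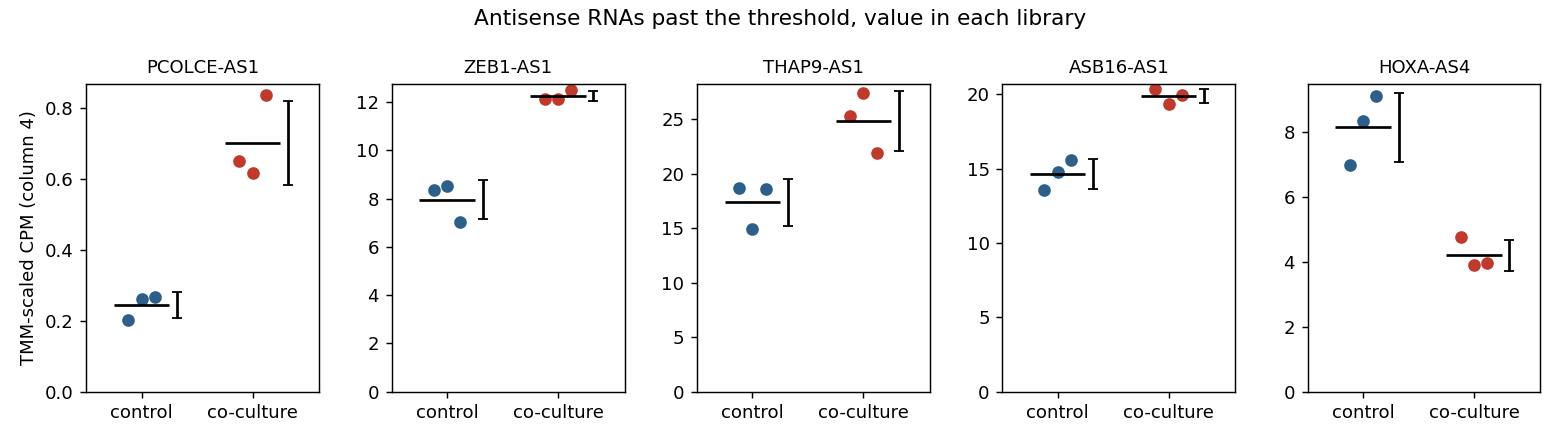
Level of each called antisense RNA in TMM-scaled CPM (y axis, from 0) in 3 control and 3 co-culture libraries (points), with the group mean (line) and SD (bar). For PCOLCE-AS1, ZEB1-AS1, THAP9-AS1 and ASB16-AS1 the co-culture points sit above all controls, and for HOXA-AS4 they sit below them.

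The number of calls changed with single libraries left out and with the strand class as a term, and so did the number over all genes. The reason for this was not tested. With the low or high strand leak of the library as a term in the fit, 0 of 177 antisense RNAs and 0.199% of all genes passed (0.171% higher and 0.0274% lower), with 6.21% of antisense RNAs (11) and 12.5% of all genes at an unadjusted p under 0.05. There co-culture 1 is the only co-culture library that shares a class with controls. In that fit the log2 fold changes were 0.61 for ZEB1-AS1 (adjusted p = 0.234, edgeR), 0.54 for THAP9-AS1 (0.275), 0.47 for ASB16-AS1 (0.233), 1.39 for PCOLCE-AS1 (0.352) and -0.78 for HOXA-AS4 (0.266). Without co-culture 2, 0 antisense RNAs and 0.503% of all genes were called, with 8.94% (16) and 14.7% at an unadjusted p under 0.05. Without control 2, 0 antisense RNAs and 0.440% of all genes were called, with 11.7% (21) and 16.6% at an unadjusted p under 0.05. Without co-culture 1, 0 were called higher and 3 lower (1.67%), against 0.831% of all genes called and 0.250% called lower. Without control 1 the count was 18 higher and 8 lower, 14.4% of the antisense RNAs tested against 20.8% of all genes (10.6% higher and 10.3% lower), and it included all 5 of the calls above.

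**Figure D2:**
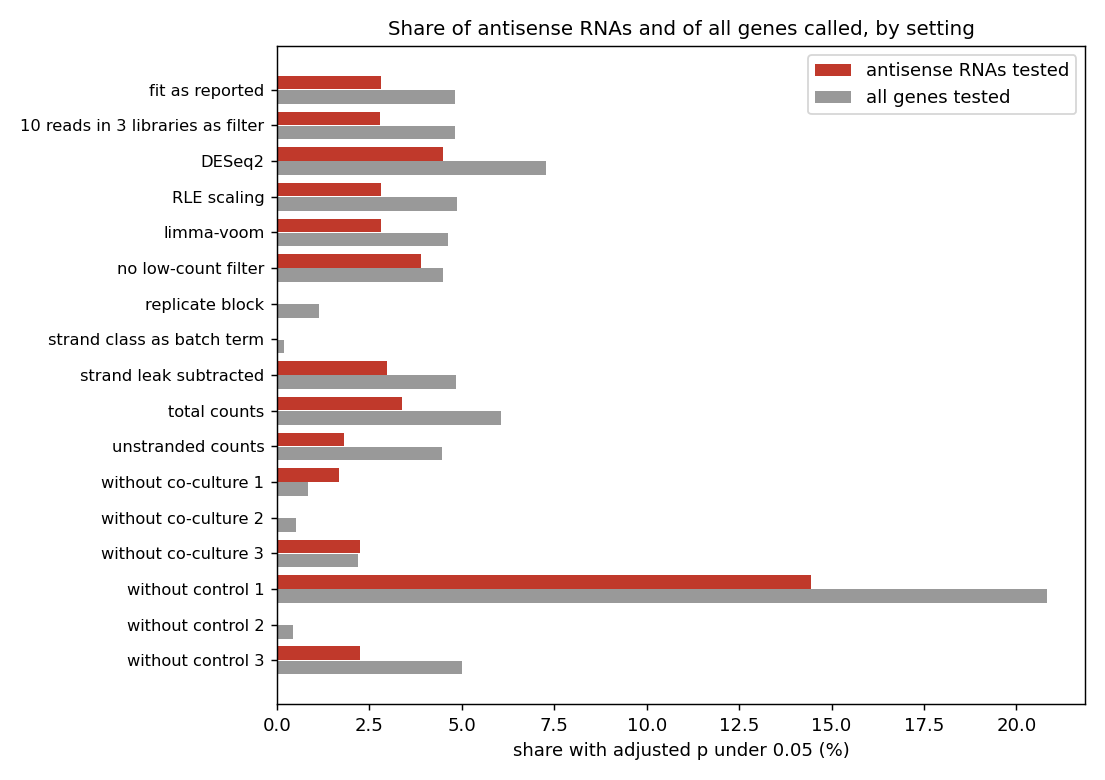
Share of tested antisense RNAs and of all tested genes with an adjusted p under 0.05 (x axis, percent) under each way of processing (rows). The antisense share is below the all-gene share in the fit as reported, at 2.82% against 4.83%, and both rise without control 1.

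Whether or not a test passed, the 2 groups did not overlap in 39 of the 177 tested antisense RNAs, or 22.0%, against 29.3% of all genes. Of these 28 were higher in co-culture (15.8% of those tested, against 14.3% of all genes) and 11 lower (6.21% against 15.0%). RNAs with a LINC name, intergenic noncoding RNAs, were read beside them as noncoding genes with no sense partner. Of 56 such RNAs under the same read minimum, 53 were tested, 2 were called higher and 0 lower, and the median log2 fold change was 0.01. The share called was 3.77%, against 4.83% of all genes. The groups did not overlap in 34.0% of the LINC-named RNAs tested (22.6% higher and 11.3% lower).

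The most abundant antisense RNA by reads was C17orf76-AS1, now named SNHG29, a host gene of small nucleolar RNAs. It stood at 270, 254 and 263 CPM in co-culture and at 301, 280 and 263 CPM in controls, with a log2 fold change of -0.10 with SE 0.07 (adjusted p = 0.392, edgeR). FGD5-AS1 followed at 231 ± 2.56 and 233 ± 7.66 CPM, with a log2 fold change of -0.01 with SE 0.06. Per kilobase of exon, over the 172 antisense RNAs with a GENCODE length, FGD5-AS1 led with 45.3 CPM per kilobase, before PITPNA-AS1 with 24.3, and TP73-AS1 was at 8.82. The median was 0.917 CPM per kilobase. Levels of the abundant RNAs were close between the groups. TP73-AS1, opposite the p53 relative TP73, was at 85.5 ± 0.937 and 85.5 ± 3.15 CPM. OIP5-AS1, also known as cyrano and known to bind miR-7, was at 53.1 ± 3.48 and 55.5 ± 3.33 CPM. MAGI2-AS3 was at 50.9 ± 3.20 and 45.7 ± 3.54 CPM, HOXD-AS1 at 34.2 ± 1.01 and 31.4 ± 1.46 CPM and BAIAP2-AS1 at 31.7 ± 1.69 and 31.5 ± 5.47 CPM, and none of these passed the test.

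HNRNPU-AS1, also abundant, had group means further apart than those RNAs, with 110, 115 and 79.9 CPM in co-culture and 74.0, 66.0 and 82.7 CPM in controls. Co-culture 3 lay among the controls. The log2 fold change was 0.45 with SE 0.14 (adjusted p = 0.102, edgeR), which missed the threshold. DESeq2, which called 7.28% of all genes, gave an adjusted p of 0.0087. Of 17 alternatives 2 called HNRNPU-AS1. RefSeq now lists this name only as a synonym of HNRNPU, the nuclear matrix protein gene, so what the row holds is uncertain. HNRNPU had a log2 fold change of 0.03 (adjusted p = 0.842, edgeR).

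A list of 44 antisense RNAs with published work, chosen for this comparison, had 25 members that passed the read minimum, and all were tested. ZEB1-AS1 was called (4% of those tested, against 4.83% of all genes) and the median log2 fold change was -0.00, with 12 above and 13 below 0. TTN-AS1, opposite the muscle gene titin, missed the threshold with 24.5 ± 3.59 against 18.5 ± 0.837 CPM and a log2 fold change of 0.40 with SE 0.11 (adjusted p = 0.060, edgeR). TTN itself was at 0.285 to 1.05 CPM. CDKN2B-AS1, also known as ANRIL and lying at the CDKN2A and CDKN2B cell cycle inhibitor locus, was at 5.60 ± 0.626 and 4.78 ± 0.375 CPM (log2 fold change 0.21 with SE 0.15). LOXL1-AS1 was at 18.9 ± 1.29 and 16.1 ± 1.25 CPM, EPB41L4A-AS1 at 9.50 ± 0.462 and 11.7 ± 2.79 CPM and DLX6-AS1 at 3.26 ± 0.398 and 2.47 ± 0.382 CPM. BACE1-AS, opposite the beta-secretase gene, was at 2.23 ± 0.290 and 2.82 ± 0.371 CPM, with 61.1% of its stranded reads on the opposite strand. GABPB1-AS1 was at 16.5 ± 0.385 and 15.0 ± 1.99 CPM, and MAPKAPK5-AS1 at 13.3 ± 0.555 and 14.2 ± 0.644 CPM. WT1-AS, BDNF-AS, GATA3-AS1, HAS2-AS1, GNAS-AS1 and DDX11-AS1, which had few reads, had log2 fold changes from -0.25 (BDNF-AS) to 0.53 (HAS2-AS1). HOXD-AS2 (-0.53) and HIF1A-AS2 (-1.37), of the same list and also low in reads, are given with the HOX and leak-prone RNAs, and none of these 8 passed.

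Antisense RNAs of the HOX clusters were 7 of the 180 members and differed in direction. Beside HOXA-AS4, HOXA11-AS was at 11.02 ± 0.594 and 11.1 ± 0.931 CPM, and HOXA-AS3 at 5.58 ± 0.617 and 4.93 ± 0.383 CPM. HOXB-AS3 was at 4.70 ± 0.536 and 5.94 ± 0.640 CPM, with a log2 fold change of -0.34 with SE 0.16 (adjusted p = 0.224, edgeR). Of the stranded reads, 66.0% over HOXA-AS3 and 64.5% over HOXB-AS3 were on the opposite strand, so both count as leak-prone below. HOXD-AS2 was at 0.915 ± 0.153 and 1.37 ± 0.405 CPM, and HOXC-AS5 from 2.10 to 2.95 CPM in co-culture and from 1.84 to 2.40 CPM in controls. Of these 7, HOXA-AS4 was the member that passed the test. None of the HOX protein genes whose exons lie opposite these RNAs passed, among them HOXA4 with a log2 fold change of -0.35 (adjusted p = 0.099, edgeR) and HOXD1 with 0.44 (0.143).

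Grouped by the sense gene's role, antisense RNAs opposite homeobox and other developmental transcription factors were 14, with 1 called higher and 1 lower and a median log2 fold change of 0.09. The share called was 14.3% of this small group, against 4.83% of all tested genes. Those opposite zinc finger genes were 6, of which 5 were tested and 0 called, with a median of -0.23. The groups opposite kinases and phosphatases, ubiquitin system genes, transporters and channels, and mitochondrial genes held 6, 4, 4 and 2 members, and none was called. All these role groups are too small to be set apart from the share over all genes. A second list held 33 other antisense and regulatory noncoding RNAs. Of these 15 were tested, 13 without the -AS ending and 2 with it (TMEM161B-AS1 and SOCS2-AS1, members of the 180). Among them HCG11, a noncoding RNA of the HLA region, fell with a log2 fold change of -0.35 with SE 0.07 (adjusted p = 0.026, edgeR), and 0 rose. The share called was 6.67% of those tested in this list. Of 35 genes for nuclear RNA decay and the cap-binding complex, 32 were tested. SRRT, a partner of the nuclear cap-binding complex, fell from 184 ± 13.3 to 145 ± 4.40 CPM (log2 fold change -0.35 with SE 0.07, adjusted p = 0.018 in edgeR), and 0 rose. For the decay genes the share called was 3.1% of those tested.

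Antisense RNAs were compared with their sense genes in pairs. A sense gene of the same root name had a row for 173 of the 180, and both partners were tested in 160 pairs. Partners had the same sign in 96 pairs (60%), with Pearson's r of 0.17 and Spearman's rho of 0.22 over pairs, which share the 6 libraries and are a description. Among these pairs 3 antisense RNAs and 11 sense genes were called (6.88% of sense genes, against 4.83% of all genes), and in 0 pairs were both called. Over all antisense RNAs tested the share called was 2.82%. With so few calls on either side, the 0 does not show whether partners change together. Of the sense genes, 6 were higher and 5 lower.

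KCNJ2, an inward rectifier potassium channel gene, fell from 7.22 ± 1.10 to 3.78 ± 0.546 CPM (log2 fold change -0.94 with SE 0.17, adjusted p = 0.016 in edgeR). KCNJ2-AS1 stood at 2.25, 3.09 and 2.68 CPM in co-culture and at 2.43, 1.30 and 1.84 CPM in controls (log2 fold change 0.52 with SE 0.25, adjusted p = 0.233 in edgeR). The sense levels did not overlap between groups, while the antisense levels did. The log2 ratio of antisense to sense RNA was -1.73 ± 0.29 in controls and -0.43 ± 0.35 in co-culture (exact permutation p = 0.1, two-sided, n = 3 each). That is the smallest p that 3 against 3 libraries allow. It was reached by 35 of the 160 pairs, and the smallest adjusted over the pairs was 0.457, so no pair can pass by this test.

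ARRDC3, an arrestin-domain gene, rose from 10.0 ± 0.753 to 18.5 ± 1.62 CPM (log2 fold change 0.88 with SE 0.11, adjusted p = 0.0021 in edgeR). ARRDC3-AS1 was at 3.85, 2.57 and 3.35 CPM in co-culture and at 2.43, 2.45 and 2.22 CPM in controls, all co-culture values being above the controls (log2 fold change 0.46 with SE 0.20, adjusted p = 0.202 in edgeR). ZNF503, a zinc finger repressor gene, fell with a log2 fold change of -0.81 with SE 0.12 (adjusted p = 0.0082, edgeR). ZNF503-AS2 was at 5.70, 6.27 and 6.37 CPM in co-culture and at 7.63, 8.503 and 10.4 CPM in controls, again without overlap (log2 fold change -0.53 with SE 0.15, adjusted p = 0.060 in edgeR). The other called sense genes were FLVCR1, LRP4, HEXA, FBXO22 and STARD4, which rose, and ZNF205, CACTIN and THAP7, which fell. Their antisense partners did not pass the test.

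**Figure D3:**
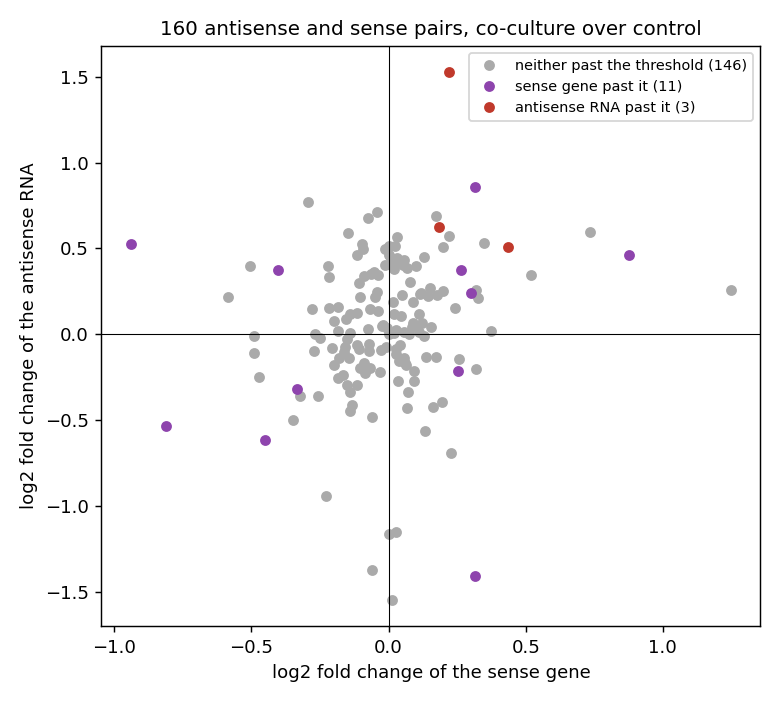
Log2 fold change of each antisense RNA (y axis) against that of its sense gene (x axis), co-culture over control, for 160 pairs (points), with pairs coloured where the sense gene (11) or the antisense RNA (3) passed the threshold. KCNJ2-AS1 sits to the upper left, with the sense gene at -0.94 and the antisense RNA at 0.52.

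Antisense rows carried many opposite-strand reads. The share of stranded reads on the opposite strand had a median of 9.70% over the antisense RNAs, against 1.15% over all tested genes and 1.41% over LINC-named RNAs. A share over 50% made 41 of the 180 leak-prone (22.8%), against 1.72% of all tested genes and 0 LINC-named RNAs. Just under that limit were LGALS8-AS1, PXN-AS1 and SDCBP2-AS1, at 48.0%, 48.6% and 48.9%, and just above it SLFNL1-AS1, BDNF-AS and MFI2-AS1, at 53.4%, 55.5% and 56.7%. The share went with gene structure: its median was 2.42% where GENCODE has no opposite exon, 6.54% with an overlap of up to 25% of exon bases, 48.0% at 25 to 50% and 87.3% above 50%. Over 172 antisense RNAs Spearman's rho of share and overlap was 0.52, as a description. GENCODE gene models need not be those the authors counted.

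The share differs from the leak expected in the antisense count, and 176 of the 180 had over 2 times the reads expected from leak. That expectation applies the median ratio of a library to all genes alike. The spread of the ratio between genes was not estimated, so leak into a single RNA was not tested. Among the most abundant leak-prone RNAs, TMPO-AS1 was at 13.97 ± 0.591 and 13.96 ± 3.19 CPM with 2.31% of its reads expected from leak. SH3BP5-AS1 ranged from 8.503 to 11.97 CPM with 2.86% expected, NOP14-AS1 from 6.47 to 8.16 CPM with 1.89%, and MCM3AP-AS1 from 5.29 to 7.06 CPM with 4.46%. Their groups overlapped.

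In 10 antisense RNAs over 25% of the reads were expected from leak, namely CERS6-AS1, HIF1A-AS2, SPAG5-AS1, PITRM1-AS1, FBXO22-AS1, BZRAP1-AS1, LIMD1-AS1, RUSC1-AS1, STARD4-AS1 and SNRK-AS1. Their median log2 fold change was -0.80, and 0 passed the test. In 7 of the 10, both low-leak libraries were lower than every other library, against 5.88% of the other antisense RNAs and 7.24% of all tested genes. Summed over the 10, the ratio of antisense to opposite-strand reads was 2.39% in co-culture 1, 1.31% in co-culture 2, 1.26% in co-culture 3, 2.69% in control 1, 2.69% in control 2 and 2.72% in control 3. Co-culture 1 was nearer to the controls than to co-culture 2 and 3. The 10 were chosen by expected leak, which uses the leak of each library, so this order is not independent of the choice. Leak as its cause was not tested. Of the summed antisense reads, the expected leak was 69.9%, 9.51% and 16.8% in co-culture 1, 2 and 3 and 61.9%, 59.3% and 65.6% in control 1, 2 and 3.

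CERS6-AS1, opposite a ceramide synthase gene, had 27, 3 and 11 reads in co-culture and 26, 32 and 49 in controls. The leak expected from its opposite-strand reads was 28.96, 2.22 and 6.31 reads in co-culture and 25.7, 27.2 and 42.5 in controls. Counted and expected reads were thus close in the libraries with a high leak, and 89.8% of its reads were expected from leak. Its log2 fold change of -1.55 with SE 0.57 (adjusted p = 0.142, edgeR) was -0.27 with the strand class as a term.

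HIF1A-AS2, opposite the gene of the oxygen-sensing transcription factor HIF1A, had 20, 7 and 12 reads in co-culture and 18, 32 and 39 in controls. The expected leak was 21.3, 1.49 and 4.30 reads in co-culture and 19.0, 18.5 and 30.1 in controls. The log2 fold change was -1.37 with SE 0.43 (adjusted p = 0.091, edgeR), and it was -0.44 with the strand class as a term. HIF1A had a log2 fold change of -0.06 (adjusted p = 0.667, edgeR). Without control 1, HIF1A-AS2 passed the threshold with a log2 fold change of -1.60 (adjusted p = 0.0080, edgeR), with 74.1% of its reads expected from leak.

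SPAG5-AS1, opposite a mitotic spindle gene, had 19, 9 and 5 reads in co-culture and 24, 21 and 20 in controls, and FBXO22-AS1, opposite an F-box gene, had 22, 0 and 6 against 24, 15 and 27. In both, co-culture 1 stood among or near the controls. The 0 reads of FBXO22-AS1 in co-culture 2 allow up to 3 reads, or 0.140 CPM before TMM scaling, counting error only. With the strand class as a term the log2 fold change was -0.09 for SPAG5-AS1 and 0.12 for FBXO22-AS1, against -1.15 (SE 0.53) and -1.41 (SE 0.79) without it. TSIX, the antisense gene of XIST and one of the second list, was likewise low in co-culture 2 and 3, with 472, 17.7 and 32.8 CPM in co-culture and 320, 250 and 315 CPM in controls. There 98.6% of the stranded reads were on the opposite strand.

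**Figure D4:**
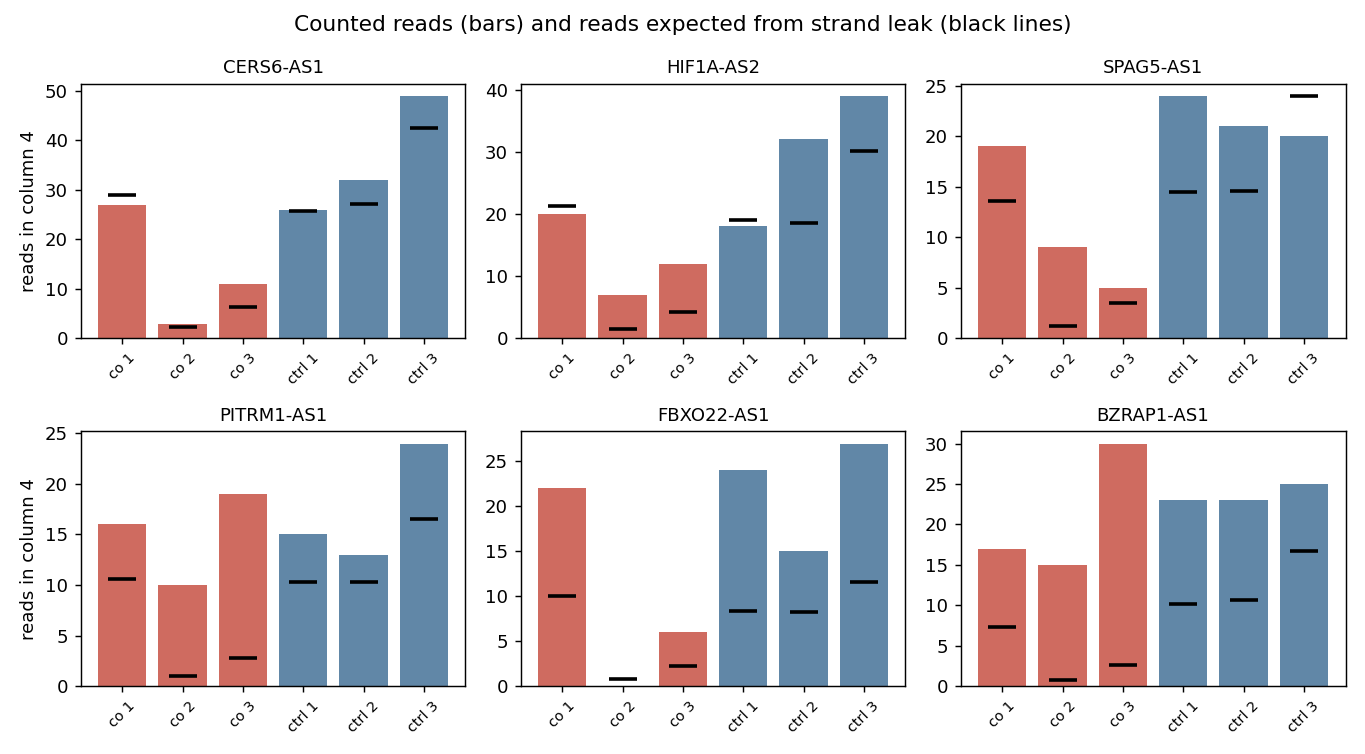
Reads counted for 6 antisense RNAs in each library (bars, from 0, co-culture and control) and reads expected from strand leak (black lines). For CERS6-AS1 the lines lie near the top of the bars in co-culture 1 and the controls. For HIF1A-AS2 they do so in co-culture 1 and control 1 and lie lower in control 2 and 3, and for both RNAs bars and lines are low in co-culture 2 and 3.

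Over all leak-prone RNAs the median log2 fold change was -0.17, with 18 above and 23 below 0, against 0.10 for the other 136 tested. In the 25 leak-prone RNAs with up to 10% of reads expected from leak it was 0.03. Among 32 leak-prone RNAs tested both ways, it was -0.04 with the counts as deposited and 0.08 with the leak subtracted. Leak subtraction left 168 antisense RNAs for the test, of which 4 were called higher and 1 lower, against 2.67% of all genes called higher and 2.17% lower (4.84% in all) in that fit. The sign differed in 4 of the 168. BZRAP1-AS1 went from -0.45 to 0.35, SLC25A5-AS1 from -0.09 to 0.14, HOXA11-AS from -0.0011 to 0.0021 and C1QTNF9B-AS1 from 0.00038 to -0.00046, and none of them was called in either fit.

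**Figure D5:**
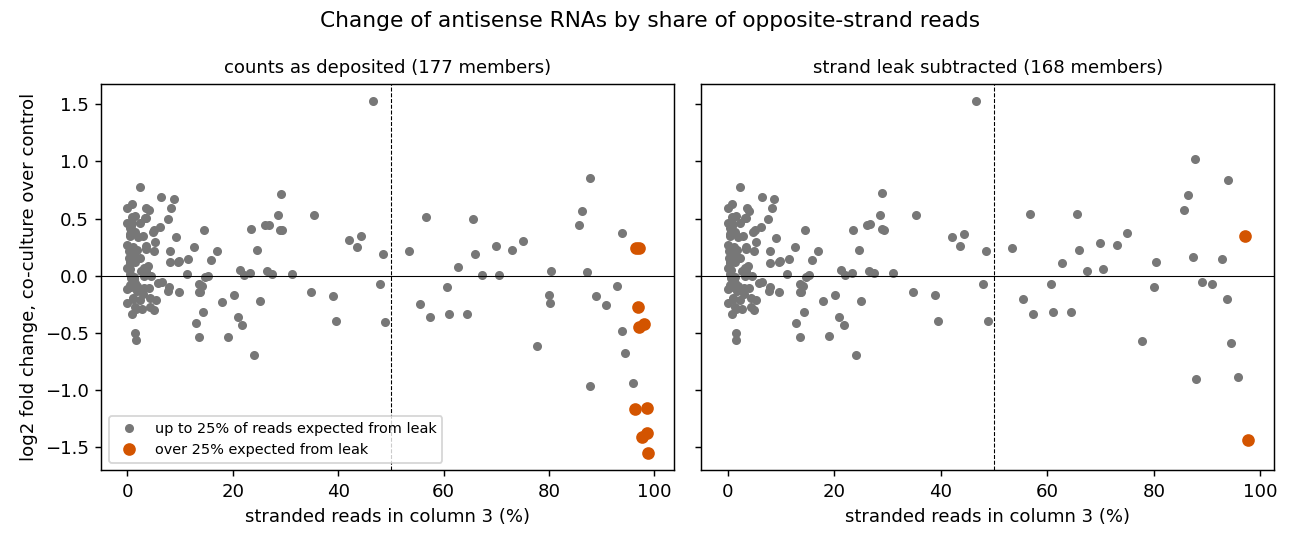
Log2 fold change, co-culture over control (y axis), of antisense RNAs (points) against the percent of stranded reads on the opposite strand (x axis), with counts as deposited (177, left) and after leak subtraction (168, right). The RNAs with over 25% of reads expected from leak (orange) lie at the right edge, mostly below 0 on the left panel, and most of them have too few reads left for the right panel.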

How the data were processed

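Per the labels' protocols, TriPure RNA went into the stranded mRNA library kit of Illumina. The submitters' processing notes name FastQC, STAR 2.53a and the build hg18. The deposited files hold whole read counts per gene, 1 file per sample, in STAR's layout of unstranded, forward and reverse columns. The annotation is not given in the sources used here. The reverse column was used. Multimapping reads are not counted, so genes with near copies are uncertain. Summary lines were left out of library sizes, at 14.8% to 17.7% (no gene), 6.48% to 8.42% (multimapping), 1.22% to 1.67% (unmapped) and 0.835% to 1.01% (ambiguous). Libraries within a group differed beyond sampling noise, with chi-square per degree of freedom from 4.56 to 17.7.

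Genes passing filterByExpr at a minimum count of 10 (14582) were fitted in edgeR 4.0.16 under R 4.3.3 with TMM scaling, robust dispersions, the quasi-likelihood F test and Benjamini-Hochberg adjustment over all of them at 0.05. Standard errors are the absolute log2 fold change over the square root of F. CPM are TMM-scaled. Expected leak is a library's leak ratio, over genes with at least 1000 reads, times the opposite-strand reads. Antisense to sense ratios used a prior of 0.5 CPM, and a two-sided exact permutation test. Alternatives were DESeq2 1.42.0, limma 3.58.1 (voom), other filters and scalings, unstranded counts, leak subtraction, strand class and replicate terms, and each library left out. The script was tested on simulated data, where 96% of 200 genes changed 2-fold were recovered, over 14572 genes, and 4% of calls were false. Genes with few reads were not among those changed, and all genes shared a common dispersion. These shares therefore do not cover smaller changes or antisense RNAs with few reads.

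Named antisense RNAs were those past the threshold, the 8 most abundant, the tested members of the list with published work, the 6 most abundant leak-prone ones, and those whose sign or call differed after leak subtraction, with their sense genes. Others were named after their values were seen. Members and lists were chosen with earlier results of these data known. In RefSeq, 148 antisense symbols are current, 31 are older names and 1 was unmatched. GENCODE release 29 holds 172. Of 165 placed sense genes all lie on the opposite strand, 143 overlap the antisense gene and 113 have a start within 1000 bases of its start. Reads carry no molecular identifiers, so intervals and limits cover counting error only. Before TMM scaling, 1 read was worth 0.0276 to 0.0524 CPM.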

Additional observations from a re-analysis of the deposited data

How the results depend on the processing

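Of 17 alternatives, limma-voom, RLE scaling, the read minimum as filter and leak subtraction gave the same 4 higher and 1 lower counts. Lower calls were 2 with DESeq2 (1.28% of antisense RNAs, against 3.13% of all genes) and 2 with no low-count filter (1.11% against 2.03%). They were 2 with scaling by total counts (1.13% against 3.92%) and 0 with unstranded counts (against 1.94%). Higher calls were 5 with DESeq2 and with no filter, 4 with total counts and 3 with unstranded counts. Over all genes 583, 474, 310 and 374 were higher with DESeq2, no filter, total counts and unstranded counts. DESeq2 gave no adjusted p for PCOLCE-AS1. With strand class as a term 0 antisense RNAs were higher, 0 lower and 29 genes were called in all. With each library left out, the count of antisense RNAs higher ranged from 0 to 18, lower from 0 to 8, all genes called from 65 to 3069 and the median log2 fold change of antisense RNAs from 0.034 to 0.10. With leak subtracted and control 1 left out, added after seeing the data, 19 were higher, 6 lower, 3077 genes were called and the median was 0.16. The median was 0.093 with strand class as a term, 0.10 with leak subtracted and 0.12 with unstranded counts, against 0.04 as reported, and the cause was not tested. With a share over 80% or over 90%, 25 or 16 RNAs were leak-prone. With 10 reads in all 6 libraries 156 antisense RNAs were members, and with 5 reads in 3 libraries 213.

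Same-numbered samples of the groups did not deviate together (correlations -0.04, -0.09 and -0.09), so they share only a number. With the replicate number as a block, 0 antisense RNAs were higher, 0 lower and 164 genes were called, and C1QTNF9B-AS1 was at -0.028.

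Changes of sign concerned uncalled antisense RNAs. C1QTNF9B-AS1 was at -0.013 with DESeq2, -0.012 with limma-voom, -0.032 with total counts, -0.35 with strand class, -0.00046 with leak subtracted and -0.12 with control 1 also left out. HOXA11-AS was at 0.0024 with DESeq2, 0.0098 with limma-voom, 0.0020 with no filter, 0.0021 with leak subtracted, 0.066 with control 1 also left out and 0.043 with unstranded counts. TP73-AS1 was at 0.0026 with DESeq2, 0.00050 with RLE and 0.0022 with no filter. With strand class BAIAP2-AS1 was at -0.012, GNAS-AS1 at 0.045 and TMPO-AS1 at -0.068, and with total counts BAIAP2-AS1 was at -0.021 and TMPO-AS1 at -0.033. With leak subtracted BZRAP1-AS1 was at 0.35 and SLC25A5-AS1 at 0.14, and with control 1 also left out BZRAP1-AS1 was at 0.56, SLC25A5-AS1 at 0.32 and BDNF-AS at 0.12. GATA3-AS1 was at 0.0050 with unstranded counts. With each library left out, log2 fold changes ranged from -0.10 to 0.16 for BAIAP2-AS1, -0.50 to 0.040 for BDNF-AS, -0.30 to 0.15 for C1QTNF9B-AS1, -0.27 to 0.025 for DDX11-AS1, -0.039 to 0.0067 for FGD5-AS1, -0.30 to 0.11 for GATA3-AS1, -0.056 to 0.063 for HOXA11-AS, -0.077 to 0.12 for MCM3AP-AS1, -0.19 to 0.046 for SLC25A5-AS1, -0.12 to 0.19 for TMPO-AS1 and -0.020 to 0.031 for TP73-AS1. A low number of reads limits the rare antisense RNAs, and 4 residual degrees of freedom limit the fit.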

Other observations

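Without control 1, 26 antisense RNAs passed the threshold, or 14.4% of those tested, against 20.8% of all genes in that fit. Of these RNAs 21 are outside the 5 calls reported with all libraries. Besides HIF1A-AS2 these include UNC5B-AS1, opposite a netrin receptor gene, with a log2 fold change of 1.62 with SE 0.35 (adjusted p = 0.0035, edgeR) against 0.69 with all libraries. UPK1A-AS1 had 1.24 against 0.60, DLG5-AS1 1.00 against 0.68 and WDFY3-AS2 0.93 against 0.43. DICER1-AS1, opposite the gene of the small-RNA processing enzyme Dicer, had 0.61 with SE 0.18 (adjusted p = 0.021, edgeR) against 0.42. Among those that were lower, CIRBP-AS1, opposite a cold-inducible RNA-binding protein gene, had -0.87 with SE 0.23 (adjusted p = 0.013, edgeR) against -0.69, and ZNF503-AS2 had -0.63 with SE 0.13 (adjusted p = 0.0024, edgeR) against -0.53. SNRK-AS1 had -1.34 against -1.17, with 27.6% of its reads expected from strand leak. These RNAs were chosen after their values were seen.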
